A study of Mus musculus with 3 samples.

Results

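The Mef2 genes encode transcription factors of the myocyte enhancer factor 2 family, and the RNA of 3 of them, Mef2a, Mef2c and Mef2d, was examined for contacts with the splicing factor RBFOX2. A contact is a cluster of crosslink sites in the deposited list, assigned to a gene when its midpoint lay inside the gene on the same strand (GENCODE M21, GRCm38). By this rule 73 of 87021 clusters belonged to the 3 genes, 50 to Mef2d, 22 to Mef2a and 1 to Mef2c. RBFOX2 was immunoprecipitated with an RBM9 antibody from UV-crosslinked primary hepatocytes of C57BL6/J mice on a control diet, an age not being given in the labels, and RNA contacts were mapped by eiCLIP, in which cDNAs end next to the crosslinked nucleotide. The 3 libraries form a single group without a treatment or a control antibody, and the authors pooled them before clusters were called, so the list has no spread between libraries and no test over samples was possible. The count of a cluster is its number of cDNAs after duplicate removal, with 10 as the lowest deposited value and 17 as the median. Intervals given here are 95% intervals (exact Poisson for counts, Wilson for shares) and cover counting error only.

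MEF2 proteins bind DNA through a MADS box and a MEF2 domain, recruit class IIa histone deacetylases or the acetyltransferase p300, and are best known for switching on muscle genes, although they act in many tissues. Their RNAs are alternatively spliced. A pair of mutually exclusive alpha exons follows the exons of the DNA-binding domain, so a transcript carries one or the other, and a short beta exon further downstream is included or skipped. RBFOX proteins bind the motif GCAUG in introns next to alternative exons, which is searched here as GCATG in the DNA letters of the annotation. In general, RBFOX contacts downstream of an exon go with inclusion and contacts upstream with skipping, and in muscle the alpha and beta exons of Mef2 RNAs are known RBFOX-dependent events.

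All 3 genes had 1 annotated alpha pair and 1 beta exon. The alpha exons are called first and second here by their order in the transcript. In Mef2d they measured 138 and 135 nt and were separated by an intron of 49 nt, in Mef2a 132 and 138 nt with 64 nt between them, and in Mef2c 144 and 138 nt with 61 nt between them. All 6 lengths are multiples of 3, so an exchange keeps the reading frame. The alpha pair of Mef2d, where the highest cluster of the family lay, is given 5′ to 3′ on the coding strand from GENCODE M21 transcripts, with bases covered by a cluster in capitals. The second alpha exon of Mef2c had no cluster and is shown for comparison.
Mef2d first alpha exon (chr3:88158034-88158171, plus strand): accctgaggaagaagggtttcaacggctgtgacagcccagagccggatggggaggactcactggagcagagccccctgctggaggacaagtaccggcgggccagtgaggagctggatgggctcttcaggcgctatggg
Mef2d second alpha exon (chr3:88158221-88158355, plus strand): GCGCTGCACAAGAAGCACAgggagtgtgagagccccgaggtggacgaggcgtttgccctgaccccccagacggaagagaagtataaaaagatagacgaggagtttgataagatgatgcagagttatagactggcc
Mef2c second alpha exon (chr13:83625470-83625607, plus strand): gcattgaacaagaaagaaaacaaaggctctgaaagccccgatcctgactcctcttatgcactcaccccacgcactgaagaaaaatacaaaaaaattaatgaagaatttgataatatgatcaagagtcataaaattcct

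In Mef2d the cluster covered the 19 bases at the 5′ end of the second alpha exon, and in Mef2a a much wider cluster covered 131 of its 138 bases. The second alpha exons of Mef2c and Mef2d were identical at 65.2% of aligned positions. None of the alpha exons of Mef2c and Mef2d and none of the 3 beta exons held GCATG. The beta exons, too, differed in length, with 21 nt in Mef2d and 24 nt in Mef2a and Mef2c.
Mef2d beta exon (chr3:88161781-88161801, plus strand): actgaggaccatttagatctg
Mef2a beta exon (chr7:67244521-67244544, minus strand): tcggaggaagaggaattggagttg
Mef2c beta exon (chr13:83654598-83654621, plus strand): tctgaggatgtggatctgctgttg

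Mef2d was the most densely contacted Mef2 gene, Mef2a was close to the middle of all contacted genes and Mef2c was near the bottom. Mef2d (ENSMUSG00000001419.17, chr3:88142372-88172086, plus strand) held 50 clusters with 1098 counts (95% interval 1034 to 1165). Mef2a (ENSMUSG00000030557.17, chr7:67231163-67372858, minus strand) held 22 clusters with 438 counts (398 to 481). Mef2c (ENSMUSG00000005583.16, chr13:83504034-83667080, plus strand) held 1 cluster with 14 counts (7.65 to 23.5). Of all protein-coding genes, 41.8% had at least 1 cluster, so the presence of a cluster is a common outcome.

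The 3 genes differ widely in length. Per kb of gene, Mef2d had 1.68 clusters over 29.7 kb, Mef2a 0.155 over 142 kb and Mef2c 0.00613 over 163 kb, with a median of 0.122 among the 9185 protein-coding genes with a cluster. The density of Mef2d lay above that of 97.6% of these genes, that of Mef2a above 57.3% and that of Mef2c above 4.33%. The difference between Mef2d and Mef2a was 10.8-fold per kb. The genes also differ in total intron, with 23.9 kb in Mef2d and 129 kb in Mef2a. Within introns Mef2d had 1.09 clusters per kb and Mef2a 0.0928. In coding sequence the values were 4.75 and 0.597, and in the 3′ untranslated region 3.76 and 2.10. The part of intron length in the difference was not tested. By summed count Mef2d ranked 313 and Mef2a 931 among 10738 genes of any type with a cluster. The 4th family member, Mef2b, which shares the DNA-binding domain, had 1 cluster of 12 counts. RNA levels were not measured in these libraries, so the part of transcript abundance in these differences was not tested.

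**Figure D1:**
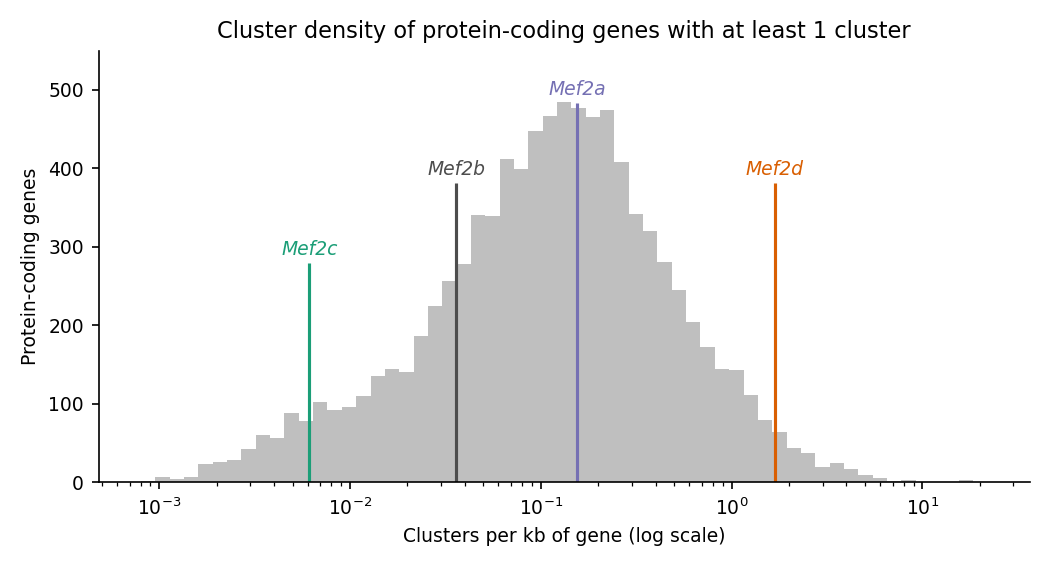
Histogram of clusters per kb of gene (log scale) over the 9185 protein-coding genes with at least 1 cluster, with a vertical line at the density of each Mef2 gene; line heights are arbitrary. Mef2d, at 1.68 clusters per kb, sits in the upper tail, Mef2a, at 0.155, near the peak and Mef2c, at 0.00613, in the lower tail.

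Clusters were also counted in marker genes of several cell types, beside the 41.8% of all protein-coding genes with a cluster. Clusters lay in 6 of the 7 hepatocyte markers found in the annotation (Alb, Apoa1, Apob, Ttr, Cps1 and Ahsg), with 13881 counts in all. Serpina1a had none. Of 8 muscle markers only Actn2 had a cluster, of 19 counts, and Ttn, Ckm, Des, Myh6, Myh7, Tnnt2 and Acta1 had none. The other lists were at or near 0 except for Reln, which gave the stellate cell list its 150 counts. They gave 15 counts in 1 of 5 Kupffer cell markers, 24 in 2 of 5 endothelial markers, 150 in 1 of 5 stellate cell markers and 14 in 1 of 4 lymphocyte markers. Among these lists the contacts thus fell mainly on hepatocyte markers. A cluster needs binding as well as RNA, so the lists do not measure expression. The stated source is primary hepatocytes, whereas the splicing of Mef2 RNAs by RBFOX proteins has mostly been studied in muscle.

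**Figure D2:**
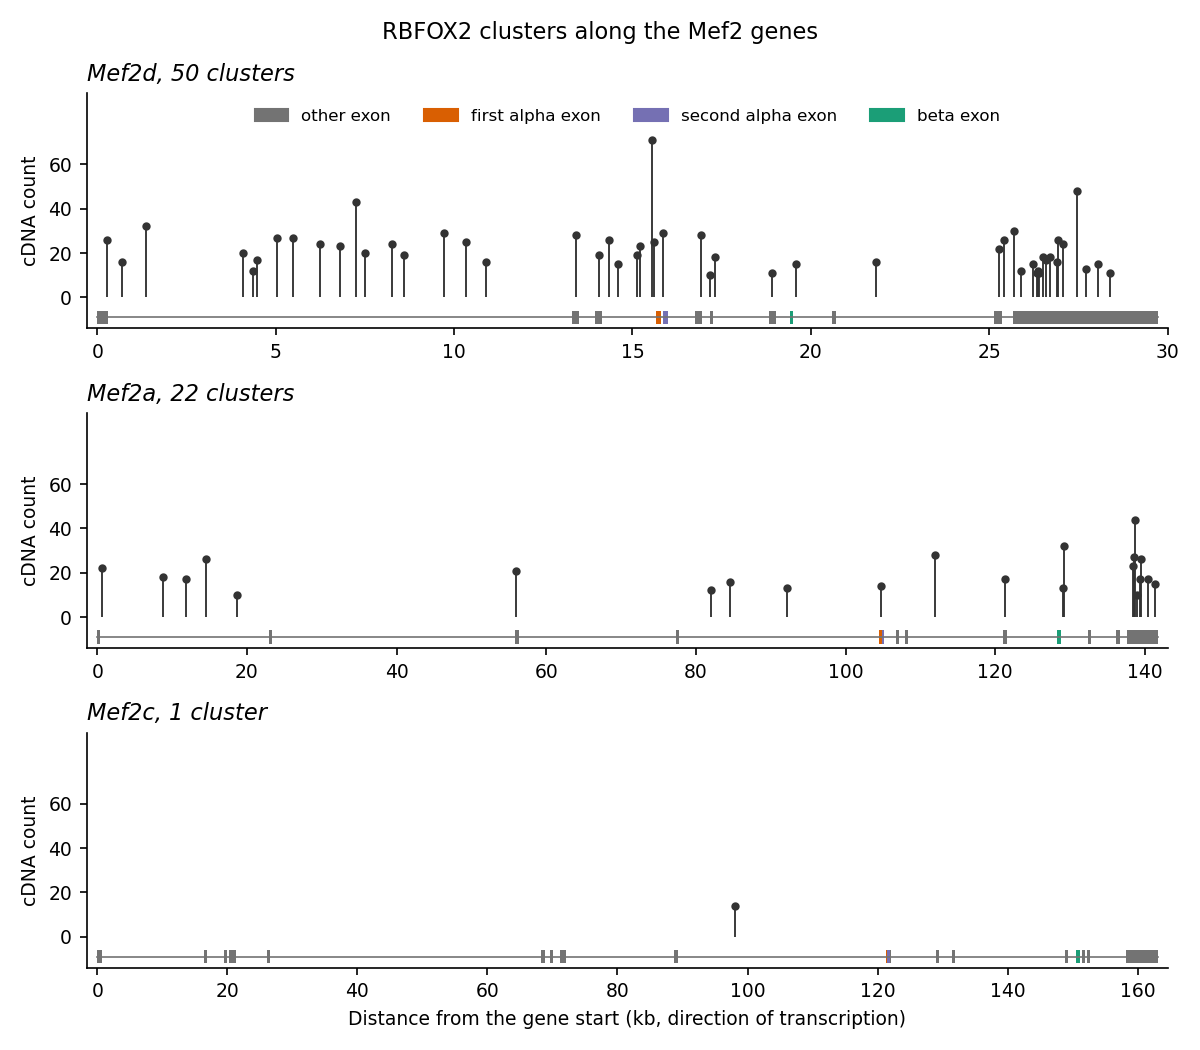
Clusters along Mef2d, Mef2a and Mef2c, with the cDNA count of each cluster against the distance of its midpoint from the gene start in the direction of transcription (kb, a separate scale for each gene). Boxes below are exons of protein-coding transcripts, widened to a minimum so that they can be seen. The 50 Mef2d clusters spread over most of the gene, 8 of the 22 Mef2a clusters sit in the last exon, and Mef2c has its only cluster in a long intron.

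The counts of single clusters were moderate in all 3 genes. In Mef2d they ran from 10 to 71 with a median of 19.5, in Mef2a from 10 to 44 with a median of 17, which equals the median of all clusters, and Mef2c had a single value of 14. The highest cluster held 71 of 1098 counts in Mef2d (6.47%) and 44 of 438 in Mef2a, whereas the total of Mef2c was that of its single cluster. Of the 73 clusters, 4 (5.48%) were in the top 10% by count, at or above 39, which with ties holds 10.2% of all clusters. These 4 were the Mef2d clusters of 71, 48 and 43 counts and the Mef2a cluster of 44. Widths were like those of the whole list, with a median of 17 nt in Mef2d and 18 nt in Mef2a and overall.

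The highest cluster of the family stood directly upstream of the Mef2d alpha pair. It covered chr3:88157909-88157937, held 71 counts (55.5 to 89.6), more than 96.6% of all clusters, and ended 97 nt before the first alpha exon. A further cluster of 25 counts (chr3:88157978-88157993) lay between it and the exon and ended 41 nt before the exon. The intervals of these 2 counts (55.5 to 89.6 and 16.2 to 36.9) do not overlap. The first cluster was picked as the highest of the family, so this is no test of a difference between the 2 sites. A cluster of 29 counts (chr3:88158206-88158239) spanned the acceptor of the second alpha exon, with 15 nt in the 49-nt intron between the alpha exons and 19 nt in the exon itself. The stretch of intron downstream of the pair held none, and the next cluster (chr3:88159239-88159323, 28 counts) lay 884 nt on, in the following coding exon.

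The whole intron upstream of the Mef2d alpha pair was dense in clusters. It is 1.51 kb long and held 6 clusters with 15 to 71 counts and 179 counts in total. That is 3.98 clusters per kb, against 1.23 per kb in the 13.0-kb first intron. The 0.303-kb last intron, with 1 cluster, had 3.30 per kb. The first intron held more clusters, 16, with 12 to 43 counts, spread through the intron. The 0.766-kb intron that follows the alpha pair held none. With a minimum of 10 counts for a deposited cluster, weaker contacts in an intron without a cluster could not be seen.

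**Figure D3:**
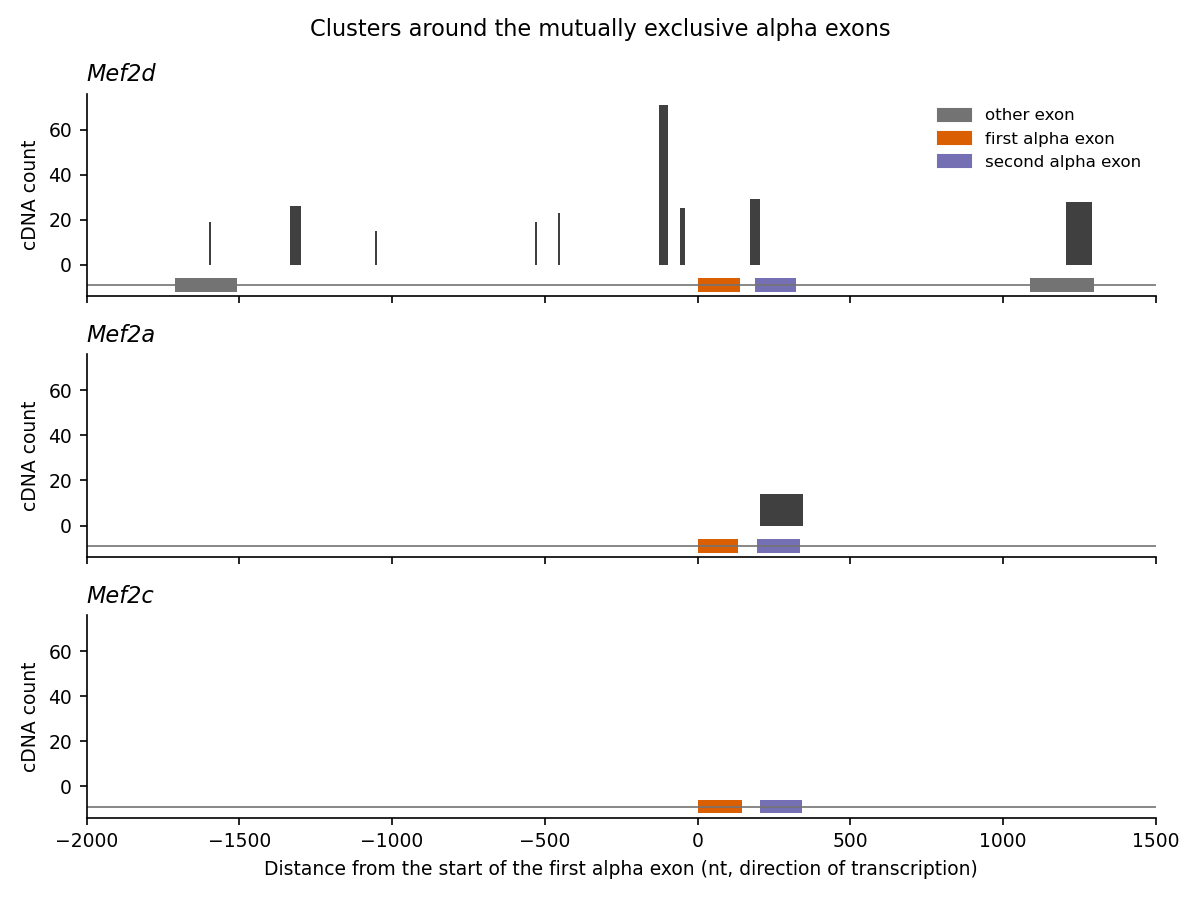
Clusters around the alpha pair of the 3 genes, by distance from the start of the first alpha exon (nt); each bar spans a cluster (drawn at least 6 nt wide) and its height is the cDNA count, with exons as boxes below. Mef2d has clusters of 71 and 25 counts upstream of the pair and 29 counts at the acceptor of the second exon, Mef2a has 1 wide cluster of 14 counts on the second exon, and Mef2c has none.

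Around the Mef2a alpha pair there was 1 weak cluster, and it lay mostly on exonic sequence. It held 14 counts (7.65 to 23.5) over 140 nt and ended 9 nt past the second alpha exon. Apart from these 9 nt, no cluster lay in the 64-nt intron of the pair or in the 1.90-kb intron after it. The nearest cluster upstream, of 13 counts, was 12273 nt away. The introns next to the Mef2d pair are not covered by transcript sequence and could not be searched for the motif. In Mef2c the single cluster (chr13:83602030-83602032, 3 nt, 14 counts) was intronic and ended 23233 nt before the first alpha exon.

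At the beta exon the contacts were again nearest in Mef2d. A cluster of 15 counts (8.40 to 24.7, chr3:88161938-88161956) began 137 nt downstream of the Mef2d beta exon, and the nearest upstream cluster, of 11 counts, lay 482 nt away in the preceding exon. In Mef2a clusters of 13 counts (chr7:67243739-67243742) and 32 counts (21.9 to 45.2, chr7:67243587-67243617) lay 779 and 904 nt downstream of the beta exon, the second being the highest intronic cluster of the gene. No Mef2c cluster lay downstream of the beta exon. The intron before the Mef2a beta exon held 1 cluster, of 17 counts, 7032 nt upstream of it.

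Counted over the 3 genes, 4 of the 9 alpha and beta exons had a cluster within 500 nt of flanking intron, namely both alpha exons and the beta exon of Mef2d and the first alpha exon of Mef2a. For Mef2a that cluster lay on the second exon, which is intron when the first is used. For the second alpha exon of Mef2d the clusters were those of 71 and 25 counts, which lie beyond the first. With the intron ended at the partner exon, 2 of the 9 remained, the first alpha and the beta exon of Mef2d. Genome-wide the share was 7.17% of 175398 internal coding exons, 23.1% of 577 exons in mutually exclusive pairs and 11.2% of 2247 internal coding exons of at most 30 nt, the class of the beta exons. Of the 4 Mef2 exons, 3 are in Mef2d, so they are not independent of each other. Where only clusters at or above the median count were kept, 2 of the 9 remained, both of them Mef2d alpha exons. The genome-wide shares were taken with all clusters and with introns not ended at a partner exon. Neither count of 2 of the 9 therefore has a share under its own rule.

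Other exons of Mef2d had clusters nearby as well. Of its 11 annotated internal coding exons 7 had one within 500 nt of intron and 8 had a cluster midpoint inside the exon, against 3 and 2 of 11 in Mef2a and 0 and 0 of 12 in Mef2c. Over all internal coding exons 4.92% had a midpoint inside. In the 825 coding genes with at least 20 clusters, to which Mef2d and Mef2a belong, 23.9% of internal coding exons had a cluster within 500 nt of intron and 22.4% had a midpoint inside. In Mef2d an intronic cluster of 26 counts (chr3:88167756-88167788) lay 22 nt downstream of the 220-nt exon and one of 18 counts (chr3:88159678-88159713) 86 nt downstream of the 57-nt exon, so nearby contacts were not limited to the alternative exons. The 7 Mef2d exons shared some clusters. That of 26 counts also counted for the following 307-nt exon, and those of 71 and 25 counts counted for both alpha exons. In Mef2a a cluster of 17 counts (chr7:67251576-67251648) began 9 nt downstream of an exon annotated in forms of 188 and 86 nt. These forms make up 2 of the 3 Mef2a exons with a cluster in flanking intron. The other is the first alpha exon, whose cluster lay on the second alpha exon.

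About equal shares of the Mef2d and Mef2a clusters were intronic, and both genes held more of their clusters in the 3′ untranslated region (UTR) than the list as a whole. Introns held 26 of 50 Mef2d clusters (52.0%, 38.5 to 65.2%), 12 of 22 Mef2a clusters (54.5%, 34.7 to 73.1%) and the Mef2c cluster, against 68.1% of 74120 clusters in genes. The 3′ UTR held 14 of 50 in Mef2d (28.0%, 17.5 to 41.7%) and 8 of 22 in Mef2a (36.4%, 19.7 to 57.0%), against 13.3%. Both 3′ UTR intervals lie above the share of all clusters in genes. For introns the Mef2d interval lies below that share and the Mef2a interval includes it. The intervals treat the clusters of a gene as independent, although many are close neighbours. Merging clusters within 200 nt left 35 in Mef2d and 19 in Mef2a. The intervals are therefore likely too narrow, and a difference from the list was not tested. These shares are not adjusted for the length of each class. Mef2d has 3.73 kb of 3′ UTR beside 23.9 kb of intron, and Mef2a has 3.81 kb beside 129 kb. All annotated genes have 33730 kb beside 1160003 kb. Coding sequence held 8 Mef2d clusters (16.0%) and 1 Mef2a cluster (4.55%), the latter being the one on the second alpha exon, against 14.1% overall.

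Relative to the length of each class, coding sequence and 3′ UTR held more clusters than introns in both genes, as they did over all genes. So did the 5′ UTR, with 4.61 clusters per kb in Mef2d (2 clusters) and 2.81 in Mef2a (1 cluster), against 0.151 over all genes. Mef2d had 4.75 clusters per kb of coding sequence, 3.76 per kb of 3′ UTR and 1.09 per kb of intron. Mef2a had 0.597, 2.10 and 0.0928 clusters per kb in the same classes, and 0 over 6.60 kb of non-coding exons annotated within its span. Over all annotated genes, including those without any cluster, the values were 0.286, 0.292 and 0.0435. The ratio of 3′ UTR to intron density was thus smaller in Mef2d than over all genes, and larger in Mef2a. In Mef2a the coding sequence was thus far less dense than the 3′ UTR, although with a single coding cluster this value rests on few events.

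**Figure D4:**
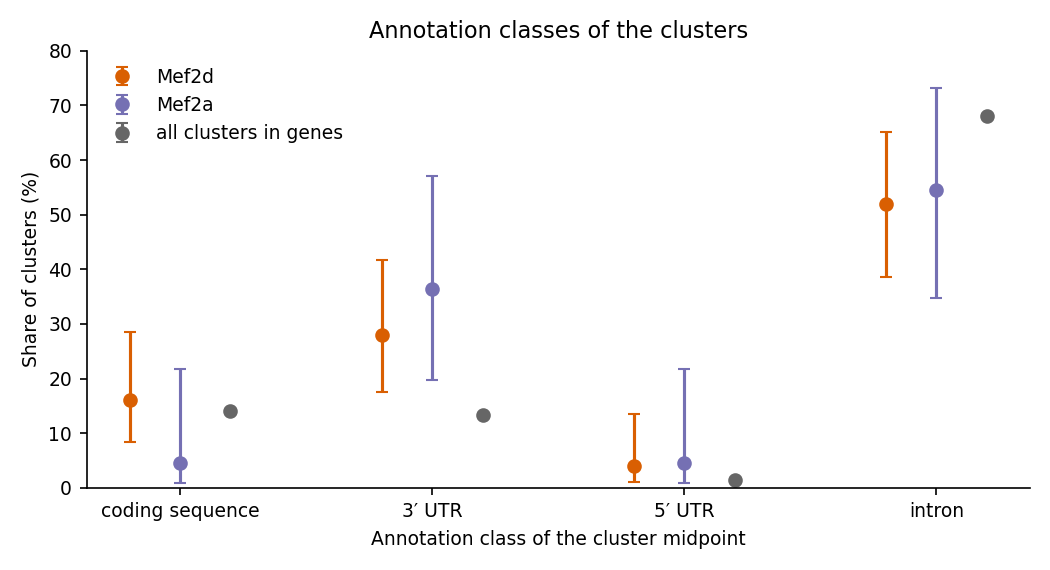
Share of clusters (%) by the annotation class of their midpoint, for Mef2d (50 clusters), Mef2a (22 clusters) and all 74120 clusters in genes; points are shares and bars are Wilson 95% intervals. The 3′ UTR shares of Mef2d (28.0%) and Mef2a (36.4%) lie above the 13.3% of all clusters, and the intronic shares of 52.0% and 54.5% lie below 68.1%. Shares are not adjusted for the length of each class.

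With 50 nt added on each side, 3 of 8 clusters in the Mef2a 3′ UTR (37.5%, 13.7 to 69.4%) and 1 of 14 in the Mef2d 3′ UTR (7.14%, 1.27 to 31.5%) had the RBFOX motif GCATG, against 21.7% of 9627 3′ UTR clusters. Both intervals include that share and overlap each other, so a difference between the genes was not detectable at these numbers. With 100 nt added the counts were 4 of 8 and 4 of 14. The highest Mef2a cluster (chr7:67234212-67234213, 44 counts, 32.0 to 59.1) had a GCATG that began 24 nt downstream of its 5′ end. The next, of 27 counts (chr7:67234326-67234337), had 2 copies, which began 14 nt upstream and 9 nt downstream of its 5′ end. A cluster of 17 counts (chr7:67232412-67232434) had 1 copy 31 nt downstream. In Mef2d the only copy within 50 nt was in the broad cluster at chr3:88170731-88170798 (11 counts), 18 nt from its 5′ end, whereas the highest 3′ UTR cluster of the gene (chr3:88169830-88169848, 48 counts, 35.4 to 63.6) had none. The motif sites are shown here as DNA on the coding strand, with GCATG in capitals.
Mef2a site by the 44-count cluster (chr7:67234172-67234201, minus strand): aatagaaaacacGCATGaaatattcagaaa
Mef2a upstream site by the 27-count cluster (chr7:67234334-67234363, minus strand): taacccaacttgGCATGggtctattgcaaa
Mef2a downstream site by the 27-count cluster (chr7:67234311-67234340, minus strand): ttgcaaaggggtGCATGggaaagggctgtt
Mef2a site by the 17-count cluster (chr7:67232386-67232415, minus strand): atcattatttatGCATGttcatgaacttct
Mef2d site in the 11-count cluster (chr3:88170737-88170766, plus strand): gtagctgaccaaGCATGgggtgctacccac

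For comparison, the highest 3′ UTR clusters of both genes follow with the bases of the cluster itself in capitals. The Mef2a cluster is 2 nt wide and sits in a stretch of mostly A and T, and the Mef2d cluster is 19 nt wide.
Mef2a 44-count cluster (chr7:67234198-67234227, minus strand): gtgatttttagctaTTaaaaagagagaata
Mef2d 48-count cluster (chr3:88169825-88169853, plus strand): ccgtcCAGGAAACTGTTGTGTTTGttgtt

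The copies of the motif in each 3′ UTR were also set against the nearest cluster. All 4 copies of GCATG in the Mef2a 3′ UTR lay within 50 nt of a cluster, against 1 of 5 copies in Mef2d and 0 of 3 in Mef2c, whose 3′ UTR had no cluster. The Mef2d copies without one were 51, 80, 103 and 296 nt from the nearest cluster, so the counts depend on the 50-nt limit, which the first of them missed by 1 nt. Of the 4 Mef2a copies, 2 lay by the same cluster, of 27 counts. Clusters were themselves frequent there, with 8 in the 3.81-kb 3′ UTR of Mef2a and 14 in the 3.73 kb of Mef2d. The share of all 3′ UTR copies that lie near a cluster was not computed, so these counts have no background. Copies were present in each 3′ UTR, at 1.05 per kb in Mef2a, 1.34 in Mef2d and 0.660 in Mef2c. The windows of 3′ UTR clusters were less rich in G and C in Mef2a (median 31.9%) than in Mef2d (51.8%), with 41.7% for all 3′ UTR clusters.

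**Figure D5:**
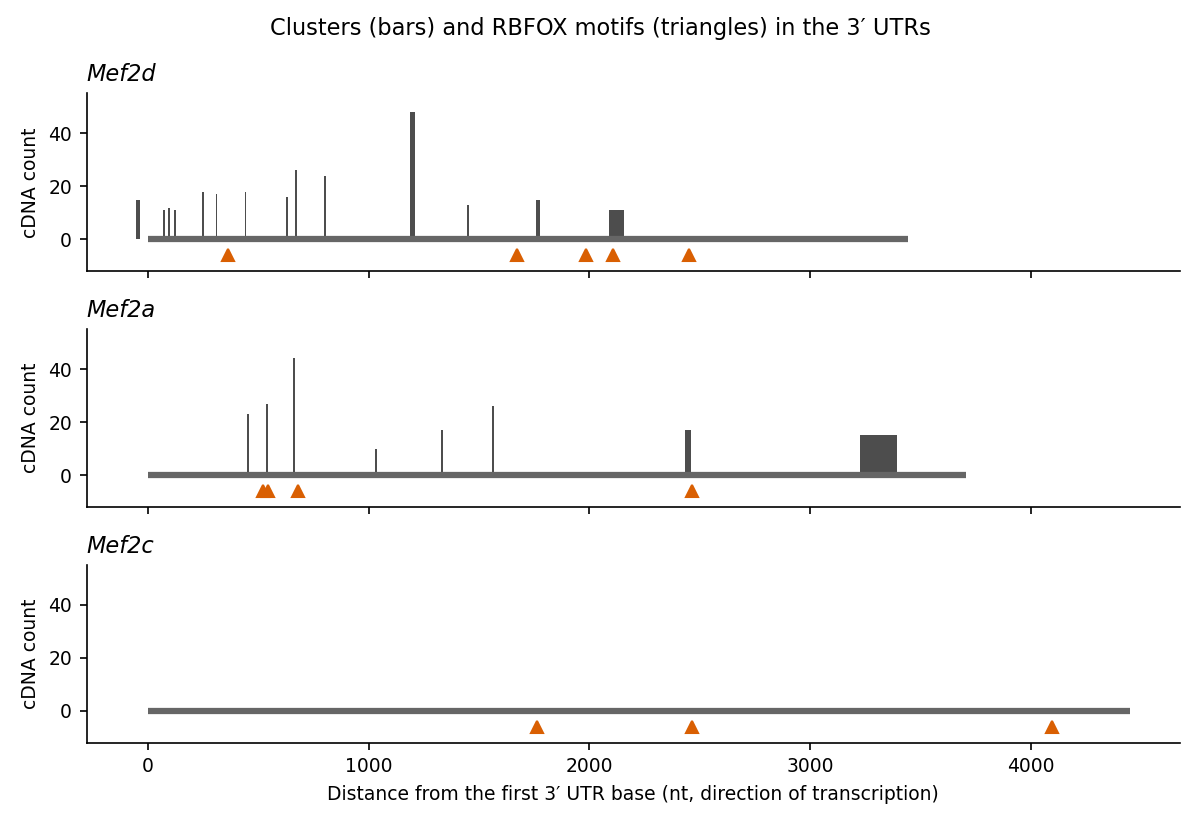
Clusters and GCATG copies along the last unbroken stretch of 3′ UTR of the 3 genes, by distance from its first base (nt); bars are clusters (drawn at least 8 nt wide) with the cDNA count as height, and triangles are motif copies. All 4 Mef2a copies lie by a cluster, 1 of 5 Mef2d copies does, and the 3 Mef2c copies stand in a 3′ UTR without clusters; a Mef2d cluster just before the first base is in the 3′ UTR of a shorter transcript.

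Over all member clusters the motif was no more frequent than in the whole list. A window of the cluster and 50 nt on each side had full sequence for 27 of 73, of which 4 held GCATG (14.8%, 5.92 to 32.5%), against 20.1% of 19587 clusters with sequence. Only 1 of the 39 intronic clusters had sequence, so the motif at the Mef2d alpha pair was not read. Heptamers taken as adaptor-like from an earlier look at these data were found in 0 of the 27. Of clusters in genes with sequence, 1.62% hold one at 6 to 17 nt from the 5′ end. At that share 27 clusters are too few to show a difference.

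Most genes of a chosen list whose products work with MEF2 proteins had a cluster. Of 27 regulators and partners, 22 had a cluster (81.5%, against 41.8% of coding genes), with a median of 336 counts among the 22. The highest totals were those of Cabin1, a repressor of MEF2 and calcineurin signalling (101 clusters, 3460 counts), Tead1, a TEA-domain factor (101 clusters, 2959 counts), Camk2d, a calcium/calmodulin-dependent kinase (87 clusters, 2546 counts), and Ncoa2, a coactivator (96 clusters, 2514 counts). These 4 had more clusters than Mef2d, but none of the 27 had more per kb, the densest being Cabin1 with 0.854. The class IIa deacetylases, which hold MEF2 factors inactive, had 22 clusters in Hdac4, 9 in Hdac5, 1 in Hdac9 and 0 in Hdac7. Myod1, the muscle determination factor, had none, and neither had Map2k6, Mapk7 or Prkd1. Most of these genes are longer than Mef2d, and their RNA levels were not measured here. The 41.8% covers all coding genes and is not matched to the list for gene length or RNA level.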

How the data were processed

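The deposited file is 1 list of clusters with strand and a whole-number count, in which the authors pooled the 3 libraries. The labels give 3 livers and 3 pellets for each library, whereas the study's methods describe cultures from pairs of mice, so the number of animals is uncertain. Per the labels and the methods, reads were demultiplexed (CASAVA 1.8.4), trimmed with cutadapt, aligned uniquely to GRCm38 with STAR 2.4.2a, collapsed by random barcode and clustered; an input control was not analysed here. Duplicate removal makes a count a cDNA, and the minimum count hides weak sites. Depth per library is not given in the sources used here, and the pooled counts sum to 2850863. Clusters were annotated by midpoint with GENCODE M21; where transcripts differ, coding sequence took precedence over untranslated exons (3′ before 5′), these over exons of non-coding transcripts, and introns came last, which include the exons of retained-intron transcripts. A midpoint inside several genes counted for each. Mutually exclusive pairs were exons of which annotated coding transcripts carry 1 or the other between the same neighbours. Sequence came from GENCODE transcripts, so only windows fully covered by exons were read. GCATG was searched on the transcribed strand. Exons were aligned globally with Biopython 1.88; Python 3.11.15 and SciPy 1.17.1 were used. Genes, lists and rules were chosen with earlier results of these data known. Named partner genes are the 5 of the list with the highest summed counts, of which 1 is not reported here, nor is the sequence of 1 exon, and others named beside them were chosen after their values were seen. The rules were tested on simulated clusters.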

Additional observations from a re-analysis of the deposited data

Results flagged for a closer look

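Clusters on the strand opposite to a Mef2 gene belong to no comparison above, and 3 were found inside the genes. A cluster of 49 counts lay opposite Mef2a (chr7:67322544-67322569, plus strand), more than any Mef2a cluster on the gene's own strand. Opposite Mef2c lay clusters of 29 counts (chr13:83507451-83507455) and 14 counts (chr13:83616726-83616729), so Mef2c had more clusters on the opposite strand than on its own. No gene is annotated on that strand at any of the 3 positions, no sequence was at hand, and Mef2d had no such cluster. A control library was not analysed here, so these values have no background.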

How the results depend on the processing

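Of 37 values recomputed under other settings, 24 stayed within the margin used (1.5 times for counts, the Wilson interval for shares) and 13 did not. Raising the minimum to the median count of 17 left 14 Mef2a, 33 Mef2d and 0 Mef2c clusters, with 0 counts in Mef2c. Taking the top 10% of counts left 1 Mef2a cluster (44 counts), 3 Mef2d clusters (162 counts) and 0 in Mef2c. The number of alpha and beta exons with a cluster in flanking intron fell to 2 with clusters at or above the median count, and also to 2, with the Mef2d first alpha and beta exons, when the intron was ended at the partner exon, an alternative chosen after seeing the data. Adding 100 nt on each side of a cluster raised the GCATG share of the Mef2 windows to 33.3%, against 29.9% of all clusters. Mef2d kept the highest and Mef2c the lowest number of clusters in each setting. Leaving out a replicate was not possible, since the libraries were pooled by the authors. No paired analysis was possible because the list holds 1 pooled group. The minimum count, the missing intronic sequence and the lack of RNA levels limit what a gene without clusters can show.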
